A study of Mus musculus with 10 samples.

Results

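Potassium channel subunits were described in RNA-seq data of meningeal lymphatic endothelial cells (LECs) from naive and stressed mice. The genes were chosen by symbol. Every row of the deposited table whose symbol began with Kcn, letters and a number was taken, except *Kcnj8* and 5 antisense or overlapping transcripts, which left 92 of 98 matching symbols and of 55401 genes in all. The family was taken up with earlier results of these counts known, among them the low *Kcna2* counts of stressed mice, so the fold changes below are a description, selected on the same contrast. The cells came from the dura of 3-month-old female C57BL/6 mice, either naive or exposed to sub-chronic variable stress (SCVS) for 6 days. Live CD45-CD31+podoplanin+ singlets were sorted, and each of the 5 naive and 5 SCVS biological replicates pooled the meninges of 3 to 4 mice. All samples shared an enzymatic digestion with actinomycin D present, and their RNA was amplified before sequencing.

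Potassium channels let potassium ions cross the cell membrane and so set its resting potential. In endothelium they are known for hyperpolarizing the cell, which increases the driving force for calcium entry, and inward rectifiers are also known as flow-sensitive channels there. Voltage-gated subunits open on depolarization, inward rectifiers pass current near the resting potential, K2P subunits (the Kcnk genes) carry background leak currents, and another class opens with intracellular calcium or sodium. Auxiliary subunits form no pore and modify the gating or trafficking of the channels they join.

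Of the 92 genes, 40 were voltage-gated, 14 inward rectifiers, 14 K2P, 8 calcium- or sodium-activated and 16 auxiliary. RefSeq held a promoter for 67 of them on GRCm38.p6. The motif GGGCGG, the core of a GC box, occurred on either strand in the 250 bases before the start in 34 of the 67 (50.7%), compared with 32.9% of 27025 genes. The letters TATAAA were found in 2.99% of the family and 13.0% of all genes, and CCAAT in 29.9% and 34.5%. The median window of the family held 8 CG dinucleotides, and that of all genes held 6. Promoters of *Kcna2* (chr3:107101317-107101566, plus strand) and *Kcnj2* (chr11:111065914-111066163, plus strand) are shown because these 2 genes are the ones the description returns to most. The letters are GRCm38.p6 sequence from RefSeq, and capitals mark GGGCGG as read on the plus strand.
Kcna2: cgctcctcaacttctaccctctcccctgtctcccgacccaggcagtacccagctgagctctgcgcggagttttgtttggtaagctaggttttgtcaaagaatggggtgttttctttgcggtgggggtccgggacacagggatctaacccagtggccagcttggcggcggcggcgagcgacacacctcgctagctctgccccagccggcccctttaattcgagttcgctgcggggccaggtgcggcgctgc
Kcnj2: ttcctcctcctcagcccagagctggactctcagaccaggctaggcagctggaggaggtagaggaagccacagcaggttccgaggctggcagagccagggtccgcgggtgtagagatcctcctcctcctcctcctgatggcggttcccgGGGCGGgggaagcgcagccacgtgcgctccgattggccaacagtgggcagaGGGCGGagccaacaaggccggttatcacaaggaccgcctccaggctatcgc
The *Kcna2* window held 18 CG dinucleotides and no GGGCGG on either strand, and the *Kcnj2* window held 14 and 2 copies. The *Kcna2* window lies inside the annotated span of the gene (chr3 107090883 to 107115005), before a downstream start.

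The total count on genes lay between 9984743 and 14094155 per replicate, so that 3 counts, used as the floor of detection, corresponded to between 0.213 and 0.300 CPM (counts divided by the replicate's total and multiplied by 1000000). Naive replicate 5 went against its label. Its summed CPM of pan-endothelial markers was 36.3, compared with 1251 to 2524 in the other 9 replicates, and its neuronal markers summed to 2121 CPM, compared with 13.1 to 1085. Naive replicate 1 held few lymphatic transcripts, with a summed lymphatic list of 60.8 CPM. It had 0 counts of *Prox1* and *Pdpn*, 2 of *Lyve1* and 5 of *Reln*, but 376 of *Flt4*, 165 of *Mmrn1* and 86 of *Ccl21a*. The other replicates apart from naive replicate 5, which had 185, held 440 to 3074 CPM of that list. Single genes of the list varied as well. SCVS replicate 5 had 2 counts of *Prox1*, and naive replicate 5 had 843 of *Prox1*, 351 of *Pdpn* and 1 of *Lyve1*. Fold changes and class counts that rest on naive replicate 5 are therefore given with and without it.

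Detection of the family was sparse. A gene entered the fit when at least 3 of the 10 replicates exceeded 5 counts for it, and 34 of the 92 genes did. Of the other 58, 9 had no count in any replicate, and 14 genes in all, these 9 included, never exceeded 3 counts. A further 25 genes exceeded 3 counts in 1 replicate only. No member exceeded 3 counts in all 10 replicates, whereas 38.1% of the 14815 tested genes did. The median tested member exceeded 3 counts in 4.5 replicates, compared with 9 for all tested genes. Its highest replicate held 49.6% of its summed CPM, compared with 27.4%. In bulk samples, fewer cells of a type and less RNA per cell cannot be told apart.

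**Figure D1:**
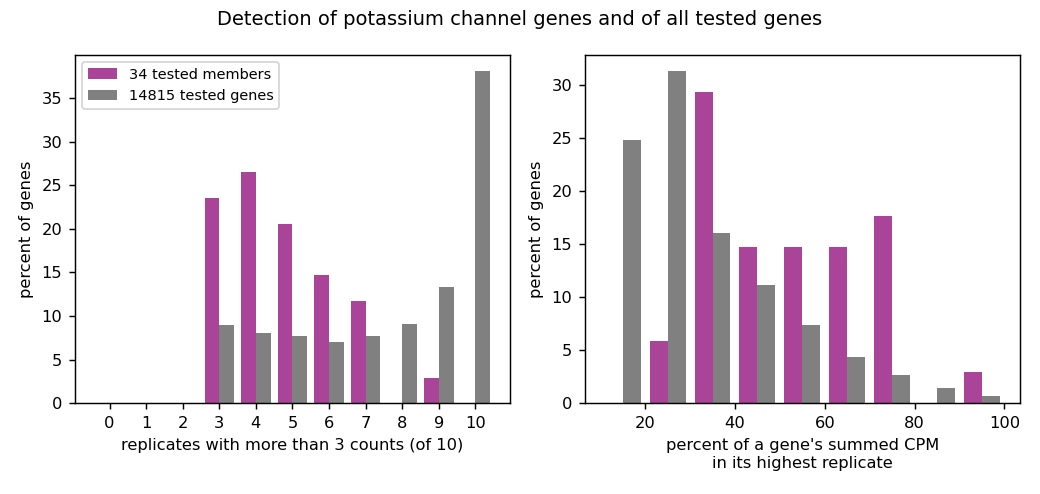
Percent of genes (y axes) by the number of replicates with more than 3 counts (left) and by the percent of a gene's summed CPM that lay in its highest replicate (right), for the 34 tested potassium channel genes and all 14815 tested genes. The family peaks at 4 replicates and has no gene at 10, whereas 38.1% of all tested genes lie at 10.

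High counts in 1 replicate alternated with 0 in the next within a group. Among the 34 tested members, 21 (61.8%) combined a count of 0 with a count of 100 or more inside the naive group, and 19 (55.9%) inside the SCVS group. Across all tested genes these shares were 34.8% and 32.5%. The potassium channel genes also had a lower mean level, with a median of 8.63 CPM against 21.0 CPM. Of the 58 genes outside the fit, 29 nevertheless reached 100 counts, 25 of them in a single replicate and 4 in 2 replicates. Naive replicate 5 held 12 of these genes, and no other replicate held more than 5. Among them, *Kcns3*, a silent modifier of voltage-gated channels, had 898 counts in naive replicate 5, and *Kcnk10* had 501 there. *Kcnj14*, an inward rectifier, had 469 counts in SCVS replicate 5 only.

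Naive replicate 5 held the most of the family. More than 3 counts were seen for 19, 18, 11, 18 and 37 members in the naive libraries, in the order of their numbers. The SCVS libraries, in the same order, detected 23, 24, 18, 29 and 32 members. The naive mean was 20.6 ± 9.71 members (SD, n = 5) and the SCVS mean 25.2 ± 5.45 (SD, n = 5), so the difference was smaller than the naive spread. Without naive replicate 5 the naive mean was 16.5 ± 3.70 (SD, n = 4). The summed CPM of the 92 genes was 1284 in naive replicate 5 and between 61.7 and 509 in the other 9. Of the 34 tested members, 11 (32.4%) were highest in naive replicate 5, as were 14.7% of all tested genes. Naive replicate 5, SCVS replicate 5 and SCVS replicate 4 detected the most members and also had the 3 highest neuronal sums, 2121, 1085 and 251 CPM. The other replicates did not follow that order. SCVS replicate 2 had the lowest neuronal sum, 13.1 CPM, with 24 members. SCVS replicate 3 had 224 CPM with 18 members, and naive replicate 1 had 210 CPM with 19. The part of neural RNA in the channel counts was not tested.

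**Figure D2:**
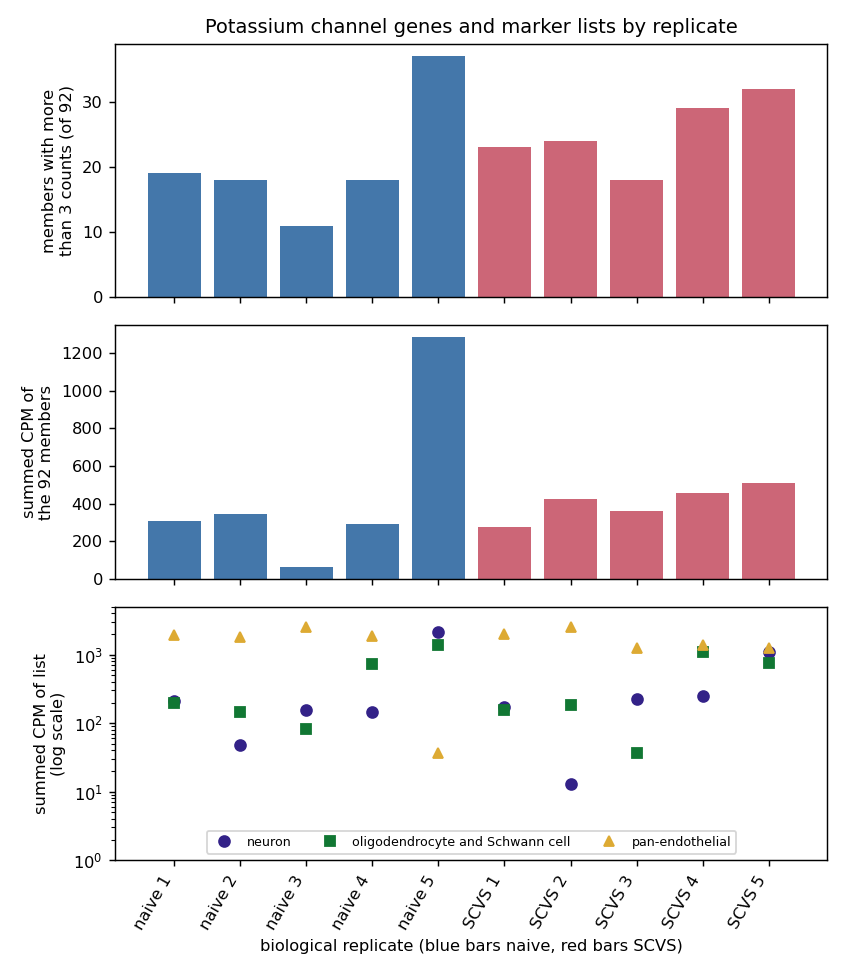
By biological replicate, the number of the 92 potassium channel genes with more than 3 counts (top), their summed CPM (middle) and the summed CPM of 3 marker lists on a log scale (bottom). Naive replicate 5 has the tallest bars, 37 members and 1284 CPM, the highest neuronal sum and the lowest pan-endothelial sum.

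**Figure D3:**
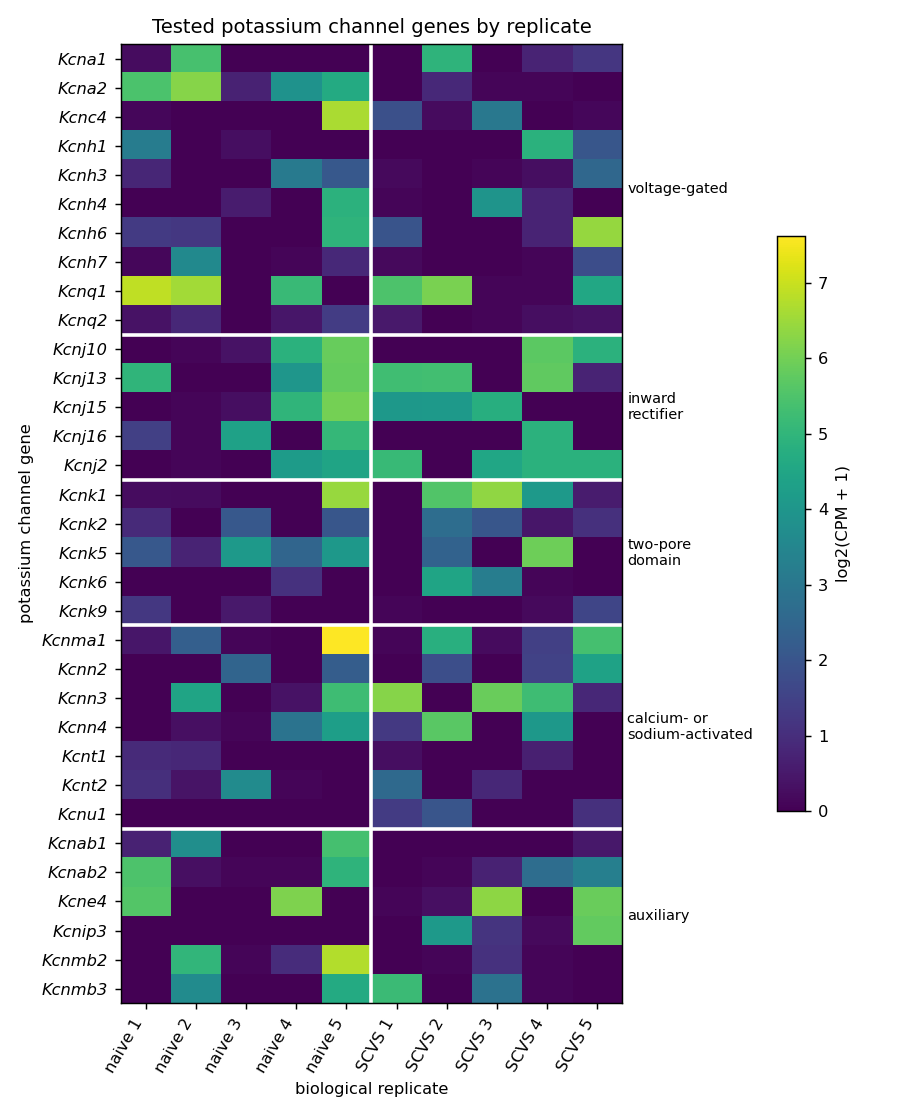
Log2(CPM + 1) of 33 tested potassium channel genes (rows, by class) in the 10 replicates (columns, naive left of the white line and SCVS right of it). Most rows hold a few bright cells and several dark ones within each group.

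The comparison of SCVS with naive replicates asked how stress changed the transcripts of these cells. Markers of the sorted cells and of other cells also moved with the contrast, although none of their genes was called. Of the 7 lymphatic genes, 6 were higher in SCVS and 1 lower, with a median log2 fold change of 0.91 (summed CPM 439 to 3074, naive 60.8 to 2747). All 6 tested myeloid genes were higher in SCVS by fitted log2 fold change (summed CPM 133 to 3890, naive 0.576 to 549), as were all 5 tested erythroid genes (10.9 to 4915, naive 4.32 to 46.7). Of 6 mural genes 5 were lower (406 to 5846 CPM, naive 769 to 7532), and of 4 tested fibroblast genes 3 were lower (3.69 to 1462 CPM, naive 35.7 to 987). All 5 tested neuronal genes were lower with all 10 replicates, but all 5 were higher in SCVS without naive replicate 5. The neuronal direction thus rested on that replicate, and the median neuronal sum was 156 CPM in naive and 224 CPM in SCVS replicates. The summed levels of each of these lists overlapped between the groups, with the highest myeloid sum in SCVS replicate 4 and the highest erythroid sum in SCVS replicate 5. The part of these cells in the channel counts was not tested. With edgeR's quasi-likelihood test at an adjusted p under 0.1, none of the 34 tested members was called, and none of all 14815 genes was (0%). At an unadjusted p under 0.05, the same test gave 460 genes. Among the members, 2 were higher (*Kcnip3* and *Kcnu1*) and 3 lower (*Kcna2*, *Kcnab1* and *Kcnmb2*) at that limit, which 1.93% and 1.17% of all tested genes passed. *Kcnip3* and *Kcnu1* had passed the filter on counts through SCVS replicates alone, and *Kcnab1* through naive replicates alone. Their entry into the test thus depended on the group in which they were high. DESeq2 with default settings called *Kcnip3* higher and *Kcna2* and *Kcnmb2* lower, with 0.499% and 0.27% of all tested genes called higher and lower. Members whose naive and SCVS CPM did not overlap numbered 0 in either direction, compared with 0.445% of tested genes higher and 0.182% lower. Since the family was selected with this contrast known, nothing is read from these shares.

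Direction was evenly split, with 17 of the 34 tested members higher and 17 lower by fitted log2 fold change and a median of 0.04 (all genes −0.03). Without naive replicate 5 the median was 0.94 (all genes 0.04) and 21 of the 34 were higher, compared with 51.9% of all genes. The sign changed for 8 members (23.5%) when that replicate was left out, and for 15.1% of all genes. With naive replicates 1 and 5 both left out, 23 were higher and the median was 0.96.

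**Figure D4:**
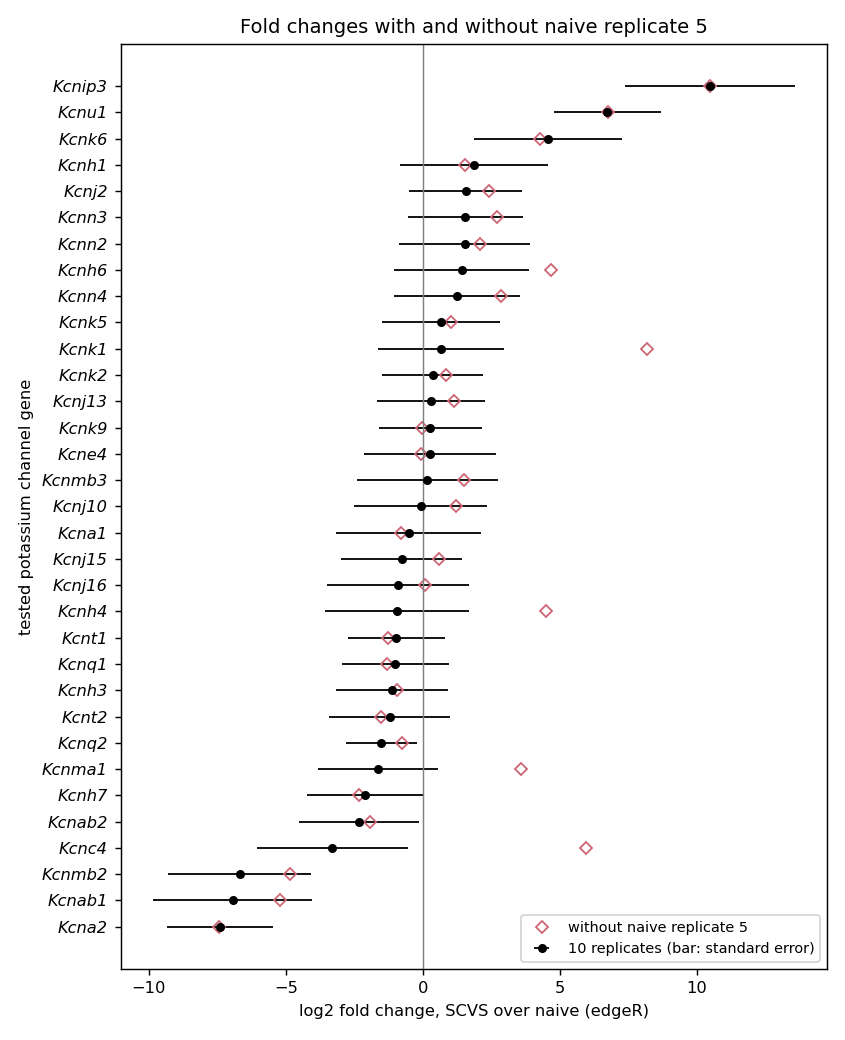
Log2 fold change of SCVS over naive for 33 tested potassium channel genes, with all 10 replicates (black, bars give 1 standard error) and without naive replicate 5 (open diamonds). *Kcna2* stays at the low end, while *Kcnma1* and *Kcnc4* move from below to above 0.

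Voltage-gated subunits made up 11 of the tested members, of which 3 were higher and 8 lower, with a median log2 fold change of −1.001. Without naive replicate 5 the split was 5 higher and 6 lower, with a median of −0.76. *Kcna2*, which encodes a low-threshold channel best known from axons, had 448, 961, 9, 187 and 323 counts in naive replicates 1 to 5. In SCVS replicates 1 to 5 it had 0, 10, 1, 1 and 0. All naive replicates exceeded 3 counts and 1 SCVS replicate did, with 31.4 ± 29.0 CPM in naive and 0.196 ± 0.352 in SCVS (SD, n = 5 each). The groups overlapped, since naive replicate 3 had 0.644 CPM and SCVS replicate 2 had 0.822. Its log2 fold change was −7.40 (SE 1.92), and −7.45 without naive replicate 5.

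*Kcna2* lies among other Kcna genes on chromosome 3, in the order *Kcna3*, *Kcna2* and *Kcna10* (107036162 to 107195721, GRCm38.p6). *Kcna3*, known from lymphocytes and microglia, was seen in SCVS replicates 2 and 4, with 138 and 178 counts, and had none elsewhere. *Kcna10* had at most 4 counts. A second group of Kcna genes lies on chromosome 6, where *Kcna1*, the common partner of *Kcna2* in axons, had 523 counts in naive replicate 2 and 366 in SCVS replicate 2, and at most 13 elsewhere. *Kcna6*, beside it, was also highest in those replicates, with 55 and 148 counts. *Kcna5*, known from vascular smooth muscle, had 117 counts in naive replicate 5, 31 in SCVS replicate 1 and at most 1 elsewhere.

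*Kcnq1*, the pore of a repolarizing current in heart and of epithelial potassium secretion, was the voltage-gated gene with the highest mean. It had 1224, 1197, 0, 476 and 0 counts in the naive and 615, 824, 1, 1 and 228 in the SCVS replicates. Both groups held replicates above 200 counts and replicates at or near 0, and the means of 49.3 ± 54.0 and 26.9 ± 29.2 CPM differed by less than the naive spread (log2 fold change −1.001, SE 1.96). *Kcnc4*, a fast-inactivating channel, had 1342 counts in naive replicate 5 and at most 90 in any other, and its log2 fold change turned from −3.31 (SE 2.76) to 5.97 without that replicate. *Kcnh6*, of the ether-à-go-go-related group, was high in 1 replicate of each group, with 402 counts in naive replicate 5 and 849 in SCVS replicate 5. *Kcnq5*, known from vascular muscle, had at most 7 counts.

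**Figure D5:**
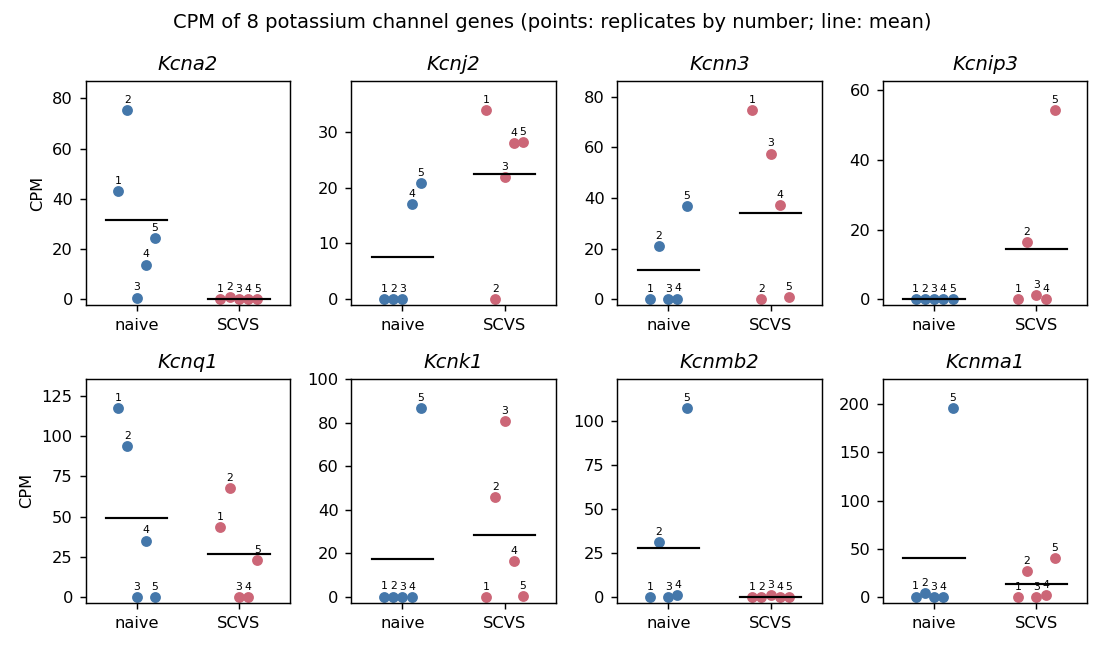
CPM (y axes, scaled per gene) of 8 potassium channel genes in each naive and SCVS replicate. Points are replicates with their number and lines are group means. *Kcna2* is near 0 in SCVS, *Kcnip3* is at 0 in naive, and the *Kcnma1* mean in naive rests on replicate 5.

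Inward rectifiers had 5 tested members, 2 higher and 3 lower. *Kcnj2*, which encodes the classical strong inward rectifier of endothelium, had 0, 1, 0, 232 and 277 counts in naive replicates 1 to 5. It had 477, 0, 269, 371 and 281 counts in SCVS replicates 1 to 5. The gene was thus above 200 counts in 2 of 5 naive and 4 of 5 SCVS replicates, and at 0 or 1 in the rest. Means were 7.59 ± 10.4 and 22.4 ± 13.2 CPM, and the log2 fold change was 1.56 (SE 2.07), or 2.42 without naive replicate 5. Its SCVS values lay above all naive values apart from SCVS replicate 2. Its neighbour *Kcnj16* (chr11 110968033 to 111027968) was seen in naive replicates 3 and 5 with 276 and 440 counts and in SCVS replicate 4 with 385, and was at most 18 elsewhere.

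*Kcnj10*, the main inward rectifier of astrocytes and satellite glia, had 0, 1, 4, 382 and 759 counts in naive and 0, 0, 0, 676 and 287 in SCVS replicates. The 4 replicates above 200 counts included the 3 with the highest neuronal sums, and naive replicate 4, whose neuronal sum was 146 CPM. The same 4 had the highest sums of the oligodendrocyte and Schwann cell list, 724 to 1387 CPM. On the astrocyte list, naive replicate 1, with 0 counts of *Kcnj10*, had 281 CPM and naive replicate 4 had 230. A link to these cells was not tested. Group means were nearly equal at 17.1 ± 25.4 and 16.0 ± 23.2 CPM. *Kcnj13*, known from the choroid plexus and retinal pigment epithelium, had 319, 0, 0, 203 and 743 counts in naive and 540, 475, 0, 711 and 7 in SCVS replicates. Its exons overlap *Gigyf2* on the opposite strand, so its reads are not assigned with certainty. *Kcnj15*, a relative of *Kcnj10*, was above 100 counts in naive replicates 4 and 5 and in SCVS replicates 1 to 3, and at most 3 in the others. Without naive replicate 5, all 5 tested inward rectifiers had a positive log2 fold change, with a median of 1.12 and standard errors of 2.21 to 2.83. The lowest of them was *Kcnj16* at 0.07. With naive replicates 1 and 5 both left out, 4 of the 5 were higher and the median was 0.79. *Kcnj12*, a further strong inward rectifier, had at most 1 count.

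All 5 tested K2P genes had a positive log2 fold change, with a median of 0.66, and 4 of the 5 did without naive replicate 5 (median 1.02). *Kcnk1*, a weak inward-rectifying leak channel, had 1156 counts in naive replicate 5 and at most 2 in naive replicates 1 to 4. SCVS replicates 1 to 5 had 0, 557, 994, 217 and 5. The log2 fold change of 0.66 (SE 2.30) became 8.20 without naive replicate 5, and 4 of 5 SCVS replicates then lay above all naive values. *Kcnk5*, an acid-sensitive channel known from kidney, was detected in all naive replicates with 34, 9, 226, 63 and 208 counts. In SCVS replicates it had 0, 52, 0, 796 and 0, so that the SCVS mean of 12.9 ± 26.5 CPM rested mostly on replicate 4, against 8.08 ± 7.27 in naive. *Kcnk6*, an endolysosomal and vascular leak channel, had 255 and 103 counts in SCVS replicates 2 and 3 and 15 in naive replicate 4. *Kcnk2*, a mechanosensitive channel, had at most 69 counts in any replicate. *Kcnk13*, known from microglia, was seen in naive replicate 4 only, with 356 counts.

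Of the 7 tested calcium- or sodium-activated genes, 4 were higher and 3 lower, and without naive replicate 5, 5 were higher. *Kcnn3* and *Kcnn4* encode the small- and intermediate-conductance calcium-activated channels known for endothelium-dependent hyperpolarization. *Kcnn3* had 0, 267, 0, 4 and 492 counts in naive and 1052, 0, 709, 492 and 8 in SCVS replicates. Both groups contained a replicate at 0, and the means of 11.6 ± 16.8 and 34.03 ± 33.4 CPM differed by less than the SCVS spread (log2 fold change 1.54, SE 2.10, and 2.72 without naive replicate 5). *Kcnn4* had 0, 3, 1, 89 and 245 counts in naive and 20, 605, 0, 209 and 0 in SCVS replicates, or 5.05 ± 7.96 and 13.4 ± 21.4 CPM. *Kcnn3* and *Kcnn4* were at least 200 counts together only in naive replicate 5 and SCVS replicate 4.

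*Kcnma1*, the pore of the large-conductance channel of smooth muscle and neurons, had 2615 counts in naive replicate 5 and at most 51 in the other naive replicates. SCVS replicates had 1, 326, 2, 23 and 402. Its log2 fold change turned from −1.63 (SE 2.20) to 3.60 without naive replicate 5. *Kcnmb1*, the beta subunit of that channel in smooth muscle, had no count in any replicate. *Kcnu1*, a related channel known from sperm, was placed in this class by its symbol and not by its gating. It had 0 counts in all naive and 21, 37, 0, 0 and 11 in SCVS replicates, and passed the filter through SCVS replicates alone. Its SCVS mean was 4.76-fold a naive mean set to 3 counts per library, a ratio that leaves out the spread between replicates.

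Auxiliary subunits had 6 tested members, 3 higher and 3 lower, and 2 were higher without naive replicate 5. *Kcnip3*, a calcium-binding protein that joins channels of the Kcnd group and also acts as a transcriptional repressor, had 0 counts in all 5 naive replicates. SCVS replicates 1 to 5 had 0, 200, 15, 2 and 541 counts, a mean of 14.4 ± 23.3 CPM. That mean was 60.8-fold a naive mean set to 3 counts per library, a ratio that leaves out the spread between replicates. SCVS replicates 1 and 4 did not exceed 3 counts. The mean rested mainly on replicates 2 and 5, and the gene passed the filter through SCVS replicates alone. Of its channel partners, *Kcnd3* had 23.7 CPM in SCVS replicate 2, where *Kcnip3* was 16.4 CPM, and 0 CPM in SCVS replicate 5, where *Kcnip3* was 54.2 CPM.

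*Kcnmb2*, an inactivating beta subunit of the *Kcnma1* channel, had 0, 400, 1, 13 and 1430 counts in naive and 0, 1, 14, 1 and 0 in SCVS replicates. Naive replicates 2 and 5 were high and the groups overlapped (log2 fold change −6.69, SE 2.62, and −4.85 without naive replicate 5). *Kcnab1*, a cytosolic beta subunit of Kcna channels, had 7, 160, 0, 0 and 538 counts in naive replicates and at most 4 in SCVS (log2 fold change −6.94, SE 2.91, and −5.20 without naive replicate 5). *Kcnab2*, of the same group, had 455 and 398 counts in naive replicates 1 and 5 and at most 3 in the remaining naive replicates. SCVS replicates had 0, 1, 8, 74 and 87 counts. Its log2 fold change of −2.33 (SE 2.18) became 4.50 with those 2 naive replicates left out, and its exons overlap Gm16334 on the same strand. *Kcne4*, an inhibitory partner of *Kcnq1* and *Kcna1*, was above 400 counts in naive replicates 1 and 4 and SCVS replicates 3 and 5, and at most 3 in the others, with 23.2 ± 32.8 and 27.5 ± 38.4 CPM. In the 4 replicates with high *Kcne4*, taken in that order, *Kcnq1* had 1224, 476, 1 and 228 counts.

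The other 11 tested members, of which *Kcnmb3* reached the highest count (503 in SCVS replicate 1), had mean levels of 0.246 to 7.85 CPM over all 10 replicates. Their log2 fold changes lay between −2.11 and 1.87, with 5 higher and 6 lower.

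Per kilobase of exon, which allows levels of different genes to be set side by side, *Kcnj13* and *Kcnq1* had the highest naive means, each 15.95 CPM per kb (SD 18.5 and 17.5). *Kcnj13* had 20.8 ± 19.3 CPM per kb in SCVS and *Kcnq1* 8.70 ± 9.44. *Kcna2* had 9.08 CPM per kb in naive and 0.06 in SCVS, and *Kcnn3* had 3.77 in naive and 11.05 in SCVS. The order of these 2 genes is not resolved by the naive means, whose gap is far below the SDs. In SCVS the gap was smaller than the *Kcnj13* SD and larger than the *Kcnq1* SD.

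Genes that work with the channels were taken from a list of sodium pump subunits, sulfonylurea receptors and other partners, of which 18 of 22 were tested, with none called, 2 higher, 16 lower and a median log2 fold change of −0.58. The pump, which builds the potassium gradient, was detected far more evenly than the channels. *Atp1b3* and *Atp1b1*, which were among the 3 partners with the highest mean, exceeded 3 counts in 10 of 10 replicates. *Atp1b3* had 469 ± 333 CPM in naive and 539 ± 158 in SCVS (log2 fold change 0.15, SE 0.48). *Atp1b1*, the beta subunit common in neurons, had 167 ± 316 and 117 ± 71.2 CPM, and its log2 fold change turned from −0.59 (SE 1.23) to 2.11 without naive replicate 5.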

How the data were processed

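Meningeal LECs were sequenced in 5 naive and 5 SCVS biological replicates, grouped by their labels. After whole-transcriptome amplification the authors trimmed and aligned the reads and deposited raw counts per gene and replicate. Their methods name the mm9 genome, while the submitters' processing notes name GRCm38, cutadapt 1.9.1, HISAT2 2.0.1 and HTSeq 0.6.1. Of the deposited identifiers, 58.8% were in the mm9 annotation GENCODE M1. The annotation release and the use of strand are not given in the sources used here. Exon lengths (91 of 92 members) and overlaps came from GENCODE M1, and positions and promoters from RefSeq on GRCm38.p6.

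The total count lay between 9984743 and 14094155. Floors of 3 counts cover counting error only, because amplified reads without molecular identifiers are not independent molecules. Genes that exceeded 5 counts in 3 or more replicates were fitted with edgeR 4.0.16 (quasi-likelihood, TMM) in R 4.3.3, with Benjamini-Hochberg adjustment over 14815 genes. DESeq2 1.42.0, limma 3.58.1, other scalings and filters, a replicate block, a covariate for the number of detected genes and left-out replicates were alternatives. Leaving out naive replicates 1 and 5 together was added after the data were seen. CPM were counts over the total of each replicate. Tested on simulated data, the edgeR fit recovered the changed genes at a low spread but not at the spread of these replicates. The simulation gave every gene the same spread. With that limit, the absence of edgeR calls does not show that levels were unchanged. Errors with ± are SDs over replicates.

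The members and lists were chosen with earlier results of these data known. Members were named by a rule: Kcna2, the 3 tested members of each class with the highest mean CPM, the 4 of lowest unadjusted p among higher and among lower members, those called by DESeq2 or without overlap of the groups, those over 3 counts in at least 8 replicates, and members known from endothelium, smooth muscle, neurons, glia or leukocytes. Members named with values outside that rule (Kcna10, Kcnd3, Kcnj14, Kcnk2, Kcnk10, Kcnmb3 and Kcns3) were chosen after their values were seen. The values of 1 tested member and 1 partner are not reported here.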

Additional observations from a re-analysis of the deposited data

Results flagged for a closer look

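In groups of 5 replicates, a value was singled out when its gap to the nearest other replicate, divided by the range of the group, exceeded Dixon's critical value of 0.71. Chance singles out about 1 in 20 groups of normally distributed values. That rate does not carry over to these groups, many of which hold several replicates at or near 0, and nothing is read from the number singled out, 12 of 50. The summed CPM of the family was high in naive replicate 5 (0.770). The remaining ratios are those of log2(CPM + 1). Naive replicate 5 was high for *Kcnc4* (0.980), *Kcnh6* (0.741) and *Kcnk1* (0.961). *Kcna1* was high in naive replicate 2 (0.953) and in SCVS replicate 2 (0.757), and *Kcnk6* was high in naive replicate 4 (1). SCVS replicate 2 was high for *Kcna2* (0.870) and low for *Kcnj2* (0.881). *Kcnj16* in SCVS replicate 4 (1) and *Kcnab1* in SCVS replicate 5 (1) were the replicates above 0 in their group, and *Kcnmb2* was high in SCVS replicate 3 (0.896).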

How the results depend on the processing

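The number of potassium channel genes called was 0 with edgeR's quasi-likelihood test and 0 with limma, the robust test, other scalings, other filters, the detected-gene covariate and the removal of naive replicates 1 and 5 together. It was 3 with DESeq2, with or without its Cook filter (*Kcna2*, *Kcnip3* and *Kcnmb2*), against 114 with the filter and 123 without it of all 14815 genes. It was 1 with edgeR's likelihood ratio test (*Kcna2*), against 38 of all genes. Leaving out each replicate gave 0 to 0 calls. The replicate block also gave 0. Same-numbered replicates are pools of different mice, and their deviations correlated at −0.009 to 0.133, over 0.1 in 1 of 5 pairs, so the numbers were not taken as pairs. Of the 5 naive replicates, 4 correlated best with their own number, a hint from the data and not the design.

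The number of members whose groups do not overlap was 0 with every scaling and filter and ranged from 0 to 2 when 1 replicate was left out. It was 1 without naive replicate 3 (*Kcna2*), 1 without SCVS replicate 1 (*Kcnip3*, resting on 2 counts in SCVS replicate 4) and 2 without SCVS replicate 2 (*Kcna2* and *Kcnj2*), against 169, 182 and 174 of all 14815 genes. The cause was not tested. The genes with an unadjusted p under 0.05 numbered 460 with edgeR, 661 with DESeq2 and 774 with limma. The stricter filter of more than 10 counts in at least 5 replicates left 12 of the 34 members. The family's median log2 fold change ranged from −0.72 with the covariate to 0.96 without naive replicates 1 and 5. Of 493 alternative values of 23 named members, 46 had the other sign, and 9 members kept their sign under every alternative. *Kcna2* ranged from −9.30 to −6.79, *Kcnj2* from 1.24 to 3.22 and *Kcnn3* from 1.07 to 6.35.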
